A study of Mus musculus with 12 samples.

Results

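F-box proteins are the adaptors that give SCF ubiquitin ligases their targets. In these ligases a cullin scaffold holds a RING protein at its far end and Skp1 at the other, Skp1 binds the F-box of the adaptor, and the rest of the adaptor binds the protein to be marked. The name shows what that rest is: leucine-rich repeats in the Fbxl proteins, WD40 repeats in the Fbxw proteins, and other or no known domains in the Fbxo proteins. In muscle the family is best known for adaptors that act in wasting, which are not among the genes described here. Many of the known roles of other members, such as those in cell division and signalling, were worked out in other tissues.

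Membership was set by a rule on the symbol, and the rule was chosen with earlier results of these data known. Of the 30323 genes in the table, 75 had a symbol made of Fbxl, Fbxo or Fbxw and a number, 4 of these (Fbxo32, Fbxo30, Fbxo40 and Fbxo21) were left out by the rule, and 71 remained, of which 18 are Fbxl, 32 Fbxo and 21 Fbxw genes. RNA was measured in soleus, a slow muscle of the lower leg, in C57BL/6N males aged 24 months. The mice, from an aging colony, lived singly and had running wheels in the cage for 8 weeks. The groups were high functioning (HF) mice with laparotomy, a surgical opening of the abdomen, HF control mice, low functioning (LF) mice with laparotomy, and LF control mice, with 3 libraries each, taken 5 days after the surgery. HF and LF were assigned by performance on an accelerating rotarod, so a difference between them is one between mice sorted by ability and not between treated and untreated mice. Whether each library came from its own mouse is not in the labels, so p-values measure only the spread between these libraries.

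Values are TPM, a share of a library's transcripts that is scaled by transcript length. Their depth is unknown, and they summed to between 956473 and 962830 per library. The 8 muscle fibre markers were all well expressed, with a summed level of 45529 to 55321 TPM in HF and 45704 to 61808 TPM in LF libraries. In the comparison of HF with LF averaged over treatments, 1 of the 8 was called higher and 2 were called lower in HF. The shares to set beside the marker counts are 6.03% of all tested genes called higher in HF and 35.3% lower. Every HF library was above all LF libraries in 1.77% of tested genes. Markers of other cell types were present. Of 4 Schwann cell markers, 3 were called higher in HF and 0 lower, and the summed level of the 4 was higher in every HF library than in any LF library. Among them Prx had between 3.12 and 10.4 TPM in HF (median 3.74) and between 2.05 and 2.46 TPM in LF libraries (median 2.31, limma adjusted p = 0.01245). Mbp had between 14.5 and 45.01 TPM in HF (median 17) and between 11.3 and 15.1 TPM in LF libraries (median 12.5, limma adjusted p = 0.056). The 5 endothelial markers summed to between 166 and 229 TPM in HF and between 139 and 184 TPM in LF libraries, with 1 of the 5 higher in HF. None of the markers named or summed here was at 0, and their part in the results below was not tested. In whole muscle, fewer cells of a type and less RNA per cell cannot be told apart. The fast myosin Myh4 was above 30 TPM in 3 libraries, HF laparotomy 2, LF laparotomy 1 and LF control 3, with 90.8, 62.4 and 33.5 TPM.

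Soleus contained a broad set of F-box transcripts at moderate level. Of the 71 genes, 16 averaged at least 10 TPM over the 12 libraries, 19 averaged 1 to 10 TPM, and 36 stayed under a mean of 1 TPM and were not tested in the comparisons. The 35 tested genes were 8 Fbxl, 19 Fbxo and 8 Fbxw genes. The members together took between 358 and 544.4 TPM of a library. The last gene to pass the minimum was Fbxw9, at a mean of 1.43 TPM, and the first to miss it was Fbxl2, at 0.964 TPM.

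Fbxo9, an adaptor that in human cells targets regulators of the mTOR kinase, had the highest mean of all members, 40.6 TPM. It was followed by Fbxw2, which in human cells targets the adaptor Skp2, at 36.1 TPM, by Fbxo31, which in human cells targets cyclin D, at 34.4 TPM and by Fbxw5, an adaptor for the growth regulator Tsc2, at 29.9 TPM. Fbxo6, which binds proteins carrying N-linked sugars, averaged 27.0 TPM, and Fbxo3 averaged 23.8 TPM. The first of these were not separated in level, since the ranges over the 12 libraries were 34.2 to 44.4 TPM for Fbxo9, 31.2 to 42.0 TPM for Fbxw2 and 26.8 to 53.65 TPM for Fbxo31.

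**Figure D1:**
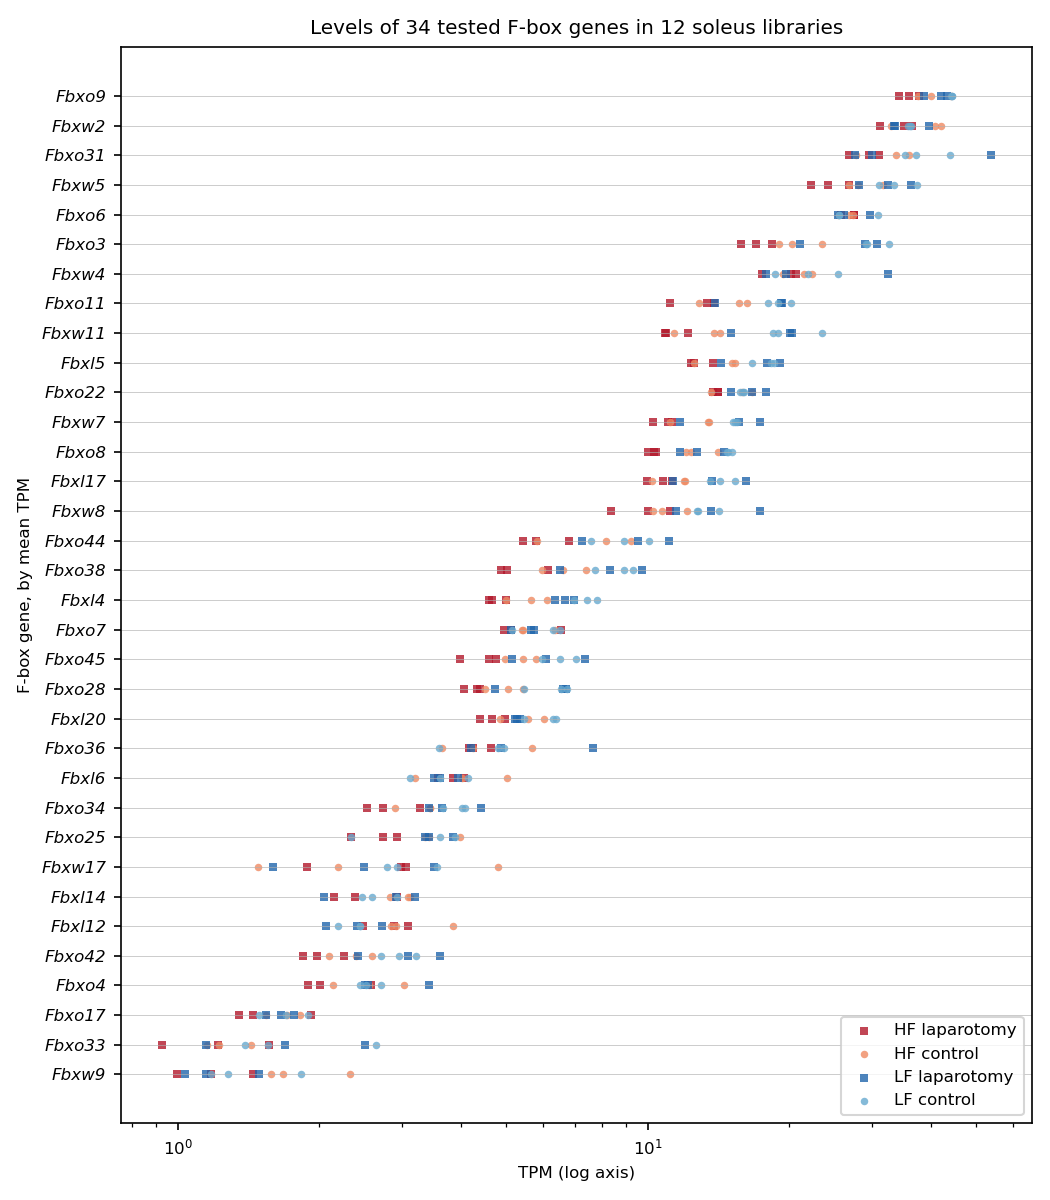
Level of 34 of the 35 tested F-box genes in 12 soleus libraries, in TPM on a log axis. Each point is 1 library, squares are laparotomy and circles control libraries, and rows run from Fbxo9 (mean 40.6 TPM) to Fbxw9 (mean 1.43 TPM). In Fbxw11 and Fbxl4 the red HF points lie left of all blue LF points, while in Fbxo6 and Fbxw2 they mix.

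Some members with a known role were near or under 1 TPM. Fbxl22, which in striated muscle acts on proteins of the Z-disc, averaged 0.585 TPM and ranged from 0.426 to 0.673 TPM in HF libraries and from 0.464 to 0.854 TPM in LF libraries. Fbxl21 averaged 0.0737 TPM, and Fbxo2, the brain-enriched member of the sugar-binding group, averaged 0.324 TPM. Fbxl2, which in cultured cells is a target of the Fbxo3 ligase, ranged from 0.671 to 1.23 TPM in HF and from 0.655 to 1.34 TPM in LF libraries.

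The least expressed members share a chromosome. The 12 Fbxw genes on chromosome 9, between 109139447 and 109746089 (GRCm38), reached at most 0.0244 TPM in any library, and 7 of them (Fbxw13, Fbxw15, Fbxw19, Fbxw20, Fbxw22, Fbxw25 and Fbxw28) were listed at 0 in every library. These 7 are also the only members listed at 0 throughout, and of 17 members that stayed below 0.1 TPM in every library, 12 are Fbxw and 5 are Fbxo genes. Fbxw28 has a near-identical copy, Fbxw14, so a value for it would be uncertain.

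In HF soleus the signalling adaptor Fbxw11, Fbxo3, the mitochondrial Fbxl4 and Fbxo38 had the smallest p of the F-box genes, and all were lower than in LF soleus. The comparison is averaged over laparotomy and control. In a limma fit to log2(TPM + 1) with Benjamini-Hochberg adjustment over all 10757 tested genes and a threshold of 0.05, 17 of the 35 F-box genes were lower and 1 was higher in HF. The same fit called 35.3% of all tested genes lower and 6.03% higher. The median gene was itself 0.15 lower in HF on the log2 scale, so each log2 difference is given below after subtracting the median of all tested genes in its comparison, while the test was on the values as deposited. On that relative scale the 35 members had a median of -0.12 and ran from -0.47 for Fbxw11 to 0.39 for Fbxl12. Of Fbxl genes, 4 were lower and 1 higher of 8 tested, of Fbxo genes 9 were lower of 19, and of Fbxw genes 4 were lower of 8.

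How libraries are scaled bears on these counts. Median-of-ratios size factors, which put the median gene near the same level in every library, ran from 0.836 in HF laparotomy 1 to 1.17 in LF laparotomy 3. With them, 8 members were lower and 3 higher in HF, against 20.6% of all genes lower and 19.9% higher, and all 8 were among the 17 that were lower as deposited. The 8 were Fbxw11, Fbxo3, Fbxo38, Fbxl4, Fbxo11, Fbxw8, Fbxl5 and Fbxo42, and the 3 higher were Fbxl12, Fbxw2 and Fbxl6. After removal of a trend in transcript length and GC content from each library, 6 members were lower (Fbxo3, Fbxo38, Fbxo44, Fbxw11, Fbxw5 and Fbxw8) and 4 higher (Fbxl12, Fbxw2, Fbxl14 and Fbxo7), against 20% and 14.3% of all genes, and the 6 were again among the 17. Fbxw11, Fbxo3, Fbxw8 and Fbxo38 were called lower under every alternative that was run, including leaving out each library.

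**Figure D2:**
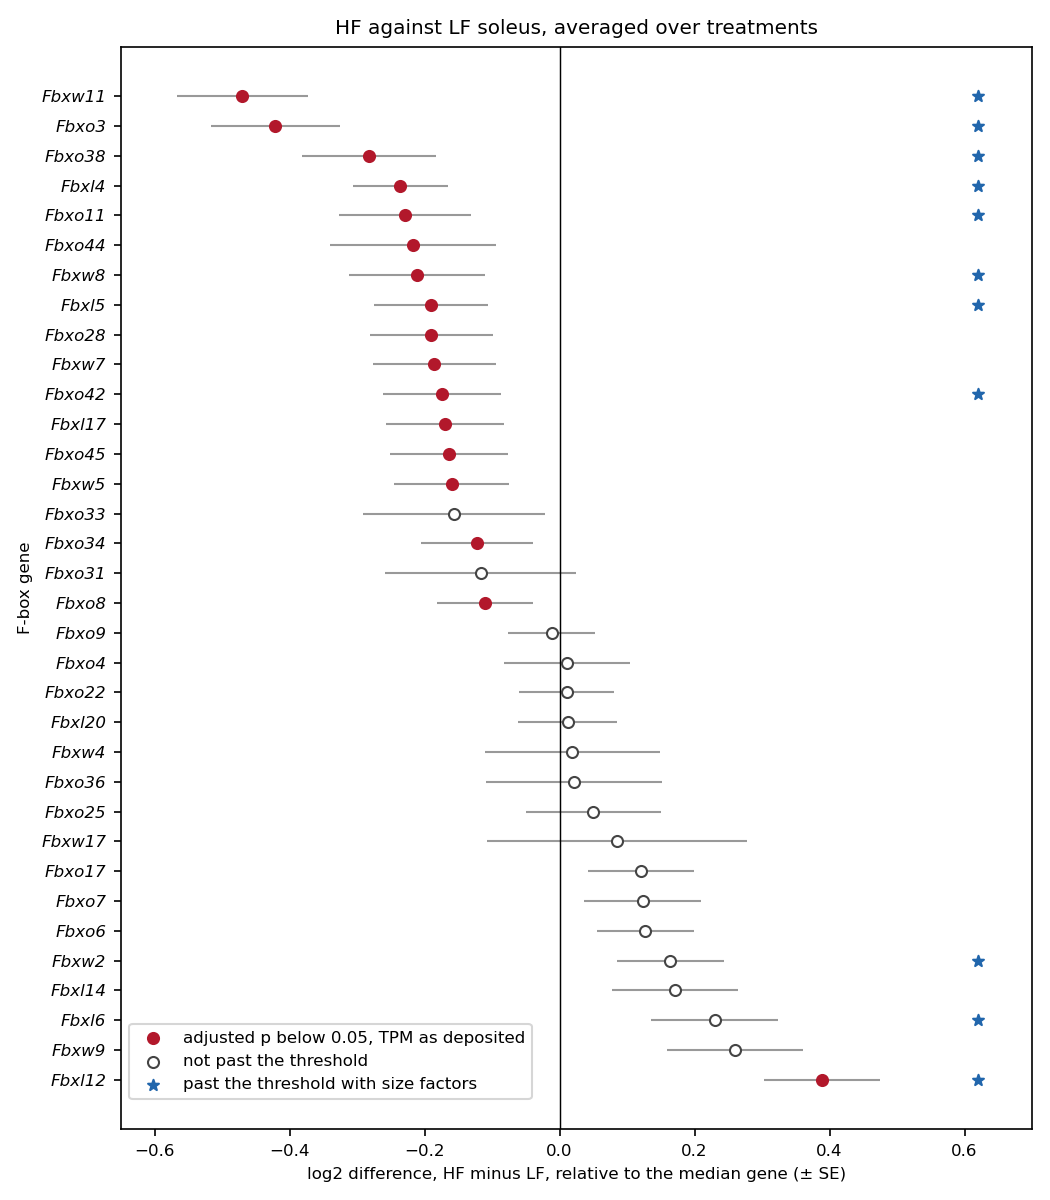
Log2 difference of 34 of the 35 tested F-box genes, HF minus LF averaged over treatments and relative to the median gene, with its SE (12 libraries). Filled points passed the limma test at an adjusted p of 0.05, open points did not, and stars mark genes past it with size factors. Fbxw11 (-0.47) and Fbxo3 (-0.42) lie farthest to the left and Fbxl12 (0.39) farthest to the right.

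Fbxw11 is the beta-TrCP2 adaptor, which recognises phosphorylated beta-catenin and the inhibitors of NF-kappaB. The gene lies on chromosome 11 at 32642724 to 32746816, plus strand (GRCm38). It had 10.95, 10.9 and 12.2 TPM in HF laparotomy libraries and 14.3, 13.9 and 11.35 TPM in HF controls, against 15.04, 20.3 and 20.1 TPM in LF laparotomy libraries and 18.9, 23.5 and 18.45 TPM in LF controls. Every HF library was below every LF library, and LF laparotomy 1 was the lowest of the LF libraries. The difference was -0.47 ± 0.10 (SE; adjusted p = 0.000781), and its adjusted p stayed at or under 0.00464 in all 19 alternatives. Its paralog Btrc, beta-TrCP1, which falls outside the symbol rule, ran from 3.155 to 3.84 TPM in HF, against 4.04 to 5.497 TPM in LF, with a difference of -0.22 ± 0.08 (adjusted p = 0.00339).

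Fbxl4 is a mitochondrial F-box protein whose loss in humans causes depletion of mitochondrial DNA. It was the other gene whose libraries did not overlap, with 4.59, 5.003 and 4.66 TPM in HF laparotomy and 5.645, 6.10 and 5.005 TPM in HF controls, against 6.35, 6.97 and 6.66 TPM in LF laparotomy and 7.82, 6.96 and 7.43 TPM in LF controls. Its laparotomy libraries were on average below controls in both HF and LF, which the tests of laparotomy below did not call. On the deposited scale this direction held for 84.4% of all tested genes in HF and 59.8% in LF. The HF minus LF difference of Fbxl4 was -0.24 ± 0.07 (adjusted p = 0.00155), and it was not called after removal of the trend in length and GC (adjusted p = 0.0726). In all, 2 of 35 members had every HF library below every LF library, against 9.31% of all tested genes, and 0 had every HF library above, against 1.77% of all genes.

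The promoters of Fbxw11 and Fbxl4, for which HF lay below LF throughout, are shown beside that of Fbxw2, a member of high level that was not called as deposited. Each is 250 bases before to 50 bases after a RefSeq start (GRCm38.p6), read 5′ to 3′ on the gene's strand, and for Fbxw2 the outermost of 2 starts was taken. Capitals mark CCGGAAG, a core of ETS factor motifs, or its reverse complement CTTCCGG.
Fbxw11 (chr11:32642305-32642604, plus strand): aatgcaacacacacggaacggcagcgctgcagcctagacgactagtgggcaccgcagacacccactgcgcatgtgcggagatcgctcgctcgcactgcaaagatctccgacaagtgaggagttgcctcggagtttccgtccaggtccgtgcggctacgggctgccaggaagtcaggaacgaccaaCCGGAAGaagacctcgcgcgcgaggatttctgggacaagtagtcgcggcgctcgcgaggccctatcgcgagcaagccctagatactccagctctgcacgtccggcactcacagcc
Fbxl4 (chr4:22357293-22357592, plus strand): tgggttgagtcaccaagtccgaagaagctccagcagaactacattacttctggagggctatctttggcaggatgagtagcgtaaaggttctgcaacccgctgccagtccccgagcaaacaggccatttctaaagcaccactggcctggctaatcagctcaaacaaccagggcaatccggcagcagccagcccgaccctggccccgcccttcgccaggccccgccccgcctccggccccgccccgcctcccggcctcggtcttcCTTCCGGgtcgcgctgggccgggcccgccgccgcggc
Fbxw2 (chr2:34826186-34826485, minus strand): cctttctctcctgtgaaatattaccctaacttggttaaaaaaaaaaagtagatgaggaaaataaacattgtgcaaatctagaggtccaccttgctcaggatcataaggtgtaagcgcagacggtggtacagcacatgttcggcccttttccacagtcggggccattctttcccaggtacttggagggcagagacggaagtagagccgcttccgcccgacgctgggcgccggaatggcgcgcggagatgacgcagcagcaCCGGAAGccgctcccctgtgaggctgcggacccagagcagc

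RefSeq promoters were matched for 54 of the 71 members. A gene was counted where any of its promoters held the letters, so the share to set beside it is that over 27025 genes, and the share over all 32851 promoters of the same length follows. CCGGAAG or its reverse complement was found in 13 of these 54, against 9.93% of genes and 8.86% of promoters. The promoters shown above are all among these matches, so they are not typical of the members. Of tested members with a promoter 8 of 26 held the letters, and of those called lower 4 of 11. The GC box GGGCGG was found in 33 of 54, against 38.2% of genes and 35.7% of promoters. The E-box CACGTG was found in 4, against 8.09% of genes and 7.15% of promoters, and TATAAA in 1, against 15.7% of genes and 13.6% of promoters. The forkhead core GTAAACA was found in 0 of 54, against 4.05% of genes and 3.65% of promoters. Both strands were searched, and CCGGAAG and its reverse complement can overlap in the shared letters CCGG. A match describes letters in this window and is not evidence that a factor binds there.

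Fbxo3 targets, among others, Fbxl2 in cultured cells and lies on chromosome 2 at 104027721 to 104063240, plus strand. It had 17.0, 15.8 and 18.35 TPM in HF laparotomy libraries and 20.3, 23.4 and 19.0 TPM in HF controls, against 21.1, 28.95 and 30.7 TPM in LF laparotomy libraries and 29.1, 29.3 and 32.6 TPM in LF controls. HF and LF libraries overlapped only through HF control 2 and LF laparotomy 1. The difference was -0.42 ± 0.10 (adjusted p = 0.00105), with adjusted p at or under 0.00563 in all 19 alternatives. Fbxo38, a gene mutated in a human motor neuropathy, differed by -0.28 ± 0.10 (adjusted p = 0.00496) and averaged 5.995 ± 0.96 TPM in HF, against 8.415 ± 1.17 TPM in LF (SD, n = 6 each).

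Fbxw8 works with its own cullin, Cul7, in place of Cul1. It had 8.36, 9.99 and 11.2 TPM in HF laparotomy libraries and 10.3, 12.1 and 10.7 TPM in HF controls, against 11.5, 13.65 and 17.4 TPM in LF laparotomy libraries and 12.7, 12.8 and 14.2 TPM in LF controls. HF control 2 and LF laparotomy 1 crossed, and the other libraries kept HF below LF. The difference was -0.21 ± 0.10 (adjusted p = 0.0129). Cul7 ranged from 5.095 to 7.11 TPM in HF and from 4.72 to 5.75 TPM in LF, and stood at 0.27 ± 0.08 (adjusted p = 0.253, and 0.00493 with size factors), and the difference between the 2 genes was not tested.

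**Figure D3:**
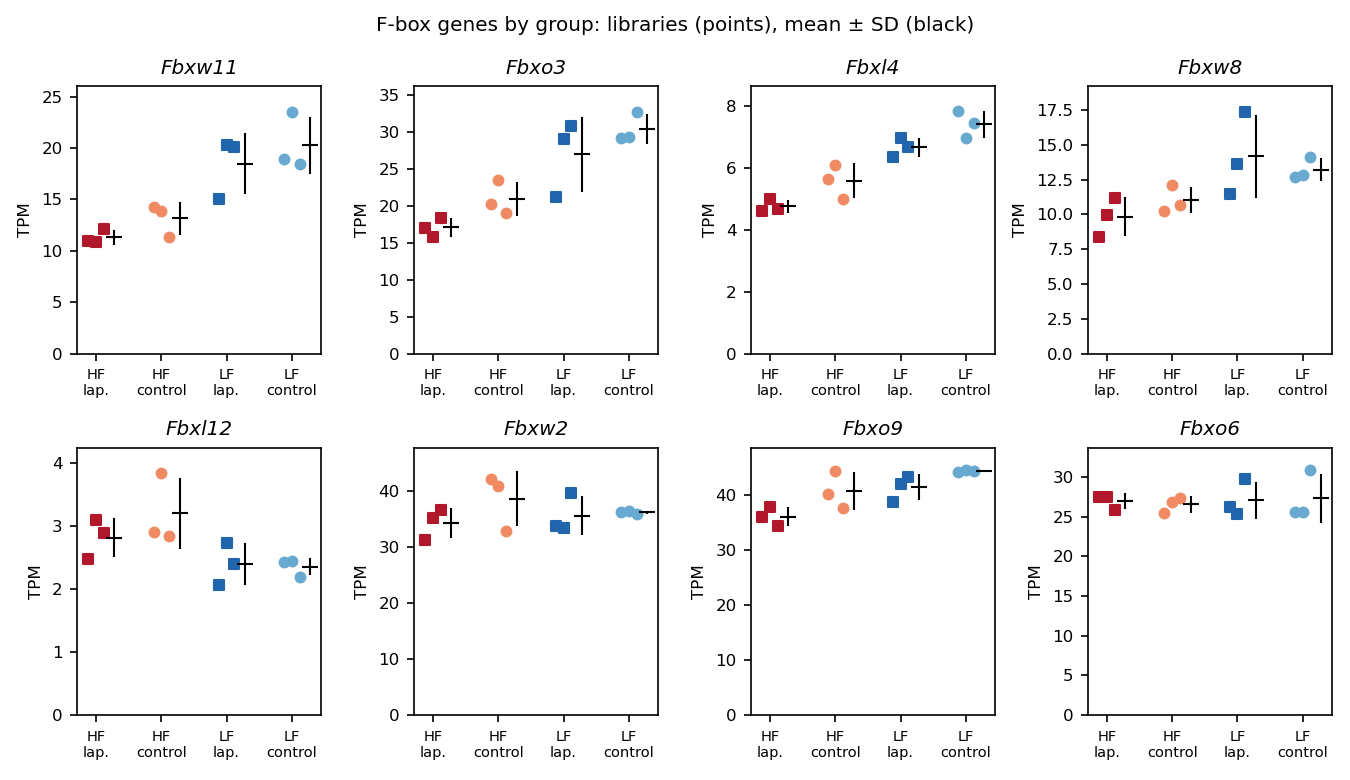
TPM of 8 F-box genes by group, from an axis that starts at 0: points are libraries (3 per group), black bars the group mean ± SD. Fbxw11, Fbxo3, Fbxl4 and Fbxw8 (top row) are lower in both HF groups, Fbxl12 is higher, and Fbxw2, Fbxo9 and Fbxo6 did not pass the test as deposited.

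Fbxw7, Fbxw5, Fbxo11, Fbxo42 and Fbxo28 were lower in HF. Fbxw7, which targets cyclin E, Myc and Notch, ran from 10.3 to 13.5 TPM in HF, against 11.7 to 17.35 TPM in LF, with a difference of -0.19 ± 0.09 (adjusted p = 0.0119). Fbxw5 ran from 22.2 to 31.7 TPM in HF, against 28.2 to 37.5 TPM in LF, with a difference of -0.16 ± 0.08 (adjusted p = 0.0118). In both genes the ranges overlapped, and neither was called with size factors (adjusted p = 0.0683 for Fbxw7 and 0.0912 for Fbxw5). Fbxo11, which targets the repressor Bcl6, differed by -0.23 ± 0.10 (adjusted p = 0.00913), and Fbxo42, which acts on p53, by -0.17 ± 0.09 (adjusted p = 0.0115). Fbxo28, an adaptor found at chromosomes and the spindle, differed by -0.19 ± 0.09 (adjusted p = 0.0109), and was not called with size factors (adjusted p = 0.0523). After removal of the length and GC trend Fbxw5 was called (adjusted p = 0.002075). Not called there were Fbxw7, Fbxo11, Fbxo42 and Fbxo28 (adjusted p = 0.472, 0.107, 0.0857 and 0.162). Fbxo31 did not pass, at -0.12 ± 0.14 (adjusted p = 0.149), and its LF laparotomy libraries held 27.6, 29.99 and 53.65 TPM, the last being the highest value of the gene.

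The iron sensor was also lower. Fbxl5, whose protein is stabilised by iron and removes the iron regulatory protein Ireb2, had 12.55, 12.4 and 13.8 TPM in HF laparotomy libraries and 15.1, 15.3 and 12.5 TPM in HF controls, against 14.3, 17.9 and 19.1 TPM in LF laparotomy libraries and 16.7, 18.3 and 18.6 TPM in LF controls. LF laparotomy 1 lay among the HF controls and the other LF libraries lay above all HF libraries. The difference was -0.19 ± 0.08 (adjusted p = 0.00749, and 0.0339 with size factors). It was not called after removal of the trend in length and GC (adjusted p = 0.18).

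Another 4 genes were called lower. Fbxl17, which removes wrongly paired BTB proteins, differed by -0.17 ± 0.09 (adjusted p = 0.0119), and Fbxo45, an adaptor needed for synapse formation in mice, by -0.16 ± 0.09 (adjusted p = 0.0133). Fbxo8, which carries a Sec7 domain like activators of ARF proteins, differed by -0.11 ± 0.07 (adjusted p = 0.012), and Fbxo34 by -0.12 ± 0.08 (adjusted p = 0.0196). The calls of Fbxl17, Fbxo45 and Fbxo8 held without each library, and that of Fbxo34 was lost without HF laparotomy 1 (adjusted p = 0.0511). None of the 4 was called with size factors.

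Fbxo2, Fbxo6, Fbxo17, Fbxo27 and Fbxo44 are paralogs of a group known for binding N-linked sugars, and 1 of them was called. Fbxo44 was lower in HF, with 5.44, 6.80 and 5.77 TPM in HF laparotomy libraries and 5.81, 9.23 and 8.13 TPM in HF controls, against 9.535, 7.23 and 11.1 TPM in LF laparotomy libraries and 10.1, 7.56 and 8.91 TPM in LF controls. The groups overlapped widely, and the call (-0.22 ± 0.12, adjusted p = 0.0302) was lost when any of 6 libraries was left out (HF laparotomy 1 or 3, HF control 1, LF laparotomy 3, LF control 1 or 3), with adjusted p up to 0.0741. Fbxo6 had the smallest ratio of its highest to its lowest library, 1.22, of the 16 members averaging at least 10 TPM. It stood at 26.7 ± 0.92 TPM in HF and 27.2 ± 2.44 TPM in LF libraries (SD, n = 6 each), with a difference of 0.13 ± 0.07 (adjusted p = 0.842). Fbxo17 stood at 0.12 ± 0.08 (adjusted p = 0.81), and Fbxo2 and Fbxo27 were under the minimum level.

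Fbxl12, which in mouse and human cells targets cyclin-dependent kinase inhibitors, was the only tested member called higher in HF as deposited. It had 2.48, 3.09 and 2.88 TPM in HF laparotomy libraries and 2.91, 3.85 and 2.85 TPM in HF controls, against 2.07, 2.73 and 2.40 TPM in LF laparotomy libraries and 2.44, 2.44 and 2.20 TPM in LF controls. HF laparotomy 1 lay within the LF range, and HF control 2 stood above all others. The difference was 0.39 ± 0.09 (adjusted p = 0.0381), and the call was lost when any of 8 libraries was left out, with adjusted p up to 0.095, namely HF laparotomy 2 or 3, HF control 2, LF laparotomy 1 or 3 and each of the LF controls. With size factors it was called (adjusted p = 0.00144). Its value is uncertain, since 37.1% of its exon bases are overlapped on the opposite strand by Ubl5, a gene at 168 TPM, and whether the quantification used strand is not known here.

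Several of the most abundant members did not pass. Fbxo9 had 36.0, 37.75 and 34.2 TPM in HF laparotomy libraries and 40.1, 44.25 and 37.6 TPM in HF controls, against 38.7, 42.0 and 43.25 TPM in LF laparotomy libraries and 44.15, 44.4 and 44.4 TPM in LF controls. HF laparotomy was the lowest group and LF control the highest, with overlap between HF controls and both LF groups. Its difference was near that of the median gene (-0.01 ± 0.06, adjusted p = 0.0632). Fbxw2 averaged 36.4 ± 4.28 TPM in HF and 35.85 ± 2.27 TPM in LF (SD, n = 6 each), with a difference of 0.16 ± 0.08 (adjusted p = 0.886, and 0.00953 with size factors). Fbxo7, a Parkinson disease gene that acts in mitophagy, averaged 5.63 ± 0.66 TPM in HF and 5.74 ± 0.57 TPM in LF (SD, n = 6 each; 0.12 ± 0.09, adjusted p = 0.844). Fbxl20, which acts at synapses, stood at 0.01 ± 0.07 (adjusted p = 0.153), and it shares sequence with a near-identical copy, Gm11632. The other 10 tested members stood between -0.16 ± 0.13 for Fbxo33 (adjusted p = 0.0862) and 0.26 ± 0.10 for Fbxw9 (adjusted p = 0.385). Among them Fbxw17 had its lowest and its highest library in the same group, the HF controls, at 1.48 and 4.81 TPM.

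**Figure D4:**
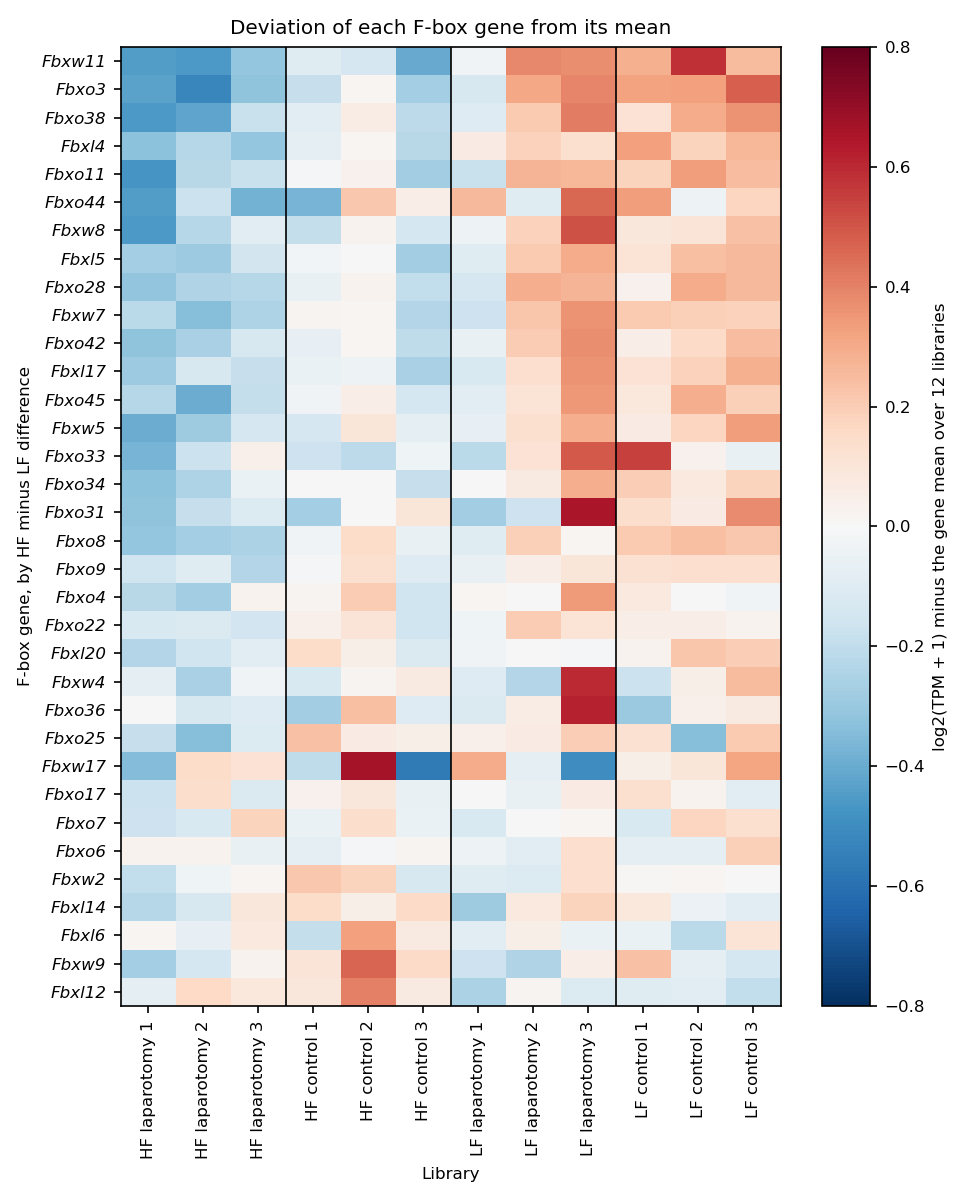
Deviation of log2(TPM + 1) from the gene's mean over 12 libraries, for 34 of the 35 tested F-box genes (rows, from the most negative to the most positive HF minus LF difference) and the 12 libraries (columns). Blue is below and red above the mean. Of the 35 genes tested, HF laparotomy 1 holds the lowest value of 19 and LF laparotomy 3 the highest value of 15.

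Many of the extreme values fell in 2 libraries. HF laparotomy 1 held the lowest value of 19 of the 35 members, against 34.99% of all tested genes, and LF laparotomy 3 the highest of 15, against 35.96%. The median deviation of the members from their means was -0.27 in HF laparotomy 1 and 0.29 in LF laparotomy 3, against -0.22 and 0.19 for all tested genes. Across genes, the HF minus LF difference went with transcript length, with a Spearman correlation of -0.48 over the 35 members and -0.35 over 10686 tested genes, and with GC content, with 0.35 and 0.22. Genes are not independent replicates, and these values describe the same 12 libraries.

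After laparotomy, 14 members were lower in HF than in LF and 0 were higher, against 24.5% of all genes lower and 1.5% higher. All 14 were among the 17 called in the averaged comparison. Fbxw11 differed by -0.46 ± 0.14 (adjusted p = 0.00849), Fbxo3 by -0.42 ± 0.13 (adjusted p = 0.00951), Fbxl4 by -0.22 ± 0.10 (adjusted p = 0.0129), Fbxo38 by -0.33 ± 0.14 (adjusted p = 0.0196) and Fbxw8 by -0.28 ± 0.14 (adjusted p = 0.029). Only Fbxw11 and Fbxo3 kept the call without each library and under every other setting. The count was 2 of 35 without HF laparotomy 1 (5.71%), against 9.04% of all genes called lower. It was 3 of 35 (8.57%) without HF laparotomy 2, LF laparotomy 2 or LF laparotomy 3, against 9.46%, 9.24% and 9.32% of all genes, so without any 1 of these 4 libraries the members' share was below that of all genes.

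In controls, 3 members were lower in HF than in LF and 0 were higher, against 8.04% of all genes lower and 2.44% higher. They were Fbxw11 (-0.48 ± 0.14, adjusted p = 0.0261), Fbxo3 (-0.41 ± 0.13, adjusted p = 0.0334) and Fbxl4 (-0.25 ± 0.10, adjusted p = 0.0426). None kept the call without each library, and 0 members were called when HF control 1 or 3 or LF control 2 or 3 was left out, where between 0.0186% and 0.288% of all genes were called lower. The interaction, which is the difference between the result after laparotomy and that in controls, was 0.03 ± 0.19 for Fbxw11, -0.0022 ± 0.19 for Fbxo3 and 0.03 ± 0.14 for Fbxl4, and it called 0 members.

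Laparotomy itself was the study's treatment, and 0 F-box genes were called between laparotomy and control in HF, in LF or averaged over both. The interaction of laparotomy with function called 0 as well. The same fits called 0% of the 10757 tested genes in each of these 4 comparisons. At an unadjusted p under 0.05 there were 5 members and 747 genes in the averaged comparison, 3 members and 665 genes in HF, 0 members and 291 genes in LF, and 1 member and 331 genes for the interaction.

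Fbxo8 had the smallest p in each laparotomy comparison. It had 9.99, 10.3 and 10.4 TPM in HF laparotomy libraries, against 12.4, 14.1 and 12.1 TPM in HF controls, and 11.7, 14.5 and 12.8 TPM in LF laparotomy libraries, against 14.8, 15.1 and 14.8 TPM in LF controls. The laparotomy libraries were below the controls without overlap in both HF and LF, but in LF only narrowly. There LF laparotomy 2 had 14.54 TPM and LF control 1 had 14.76 TPM. The share of all genes that separate in this way was not computed. Before the median was subtracted, 84.4% of all tested genes were lower after laparotomy in HF and 59.8% in LF. For Fbxo8 the averaged difference was -0.17 ± 0.07 relative to the median gene (unadjusted p = 0.00448, adjusted p = 0.683). Next came Fbxw9 (-0.17 ± 0.10) and Fbxo3 (-0.16 ± 0.10) with the same adjusted p. In HF the smallest p after that of Fbxo8 were those of Fbxw9 (-0.25 ± 0.14, adjusted p = 0.655) and of Fbxo25, a relative of the wasting adaptor Fbxo32 (-0.20 ± 0.14, adjusted p = 0.655). In LF they were those of Fbxl20 (-0.13 ± 0.10) and Fbxo3 (-0.15 ± 0.13), both with an adjusted p of 0.9995. For the interaction the smallest p were those of Fbxo25 (-0.34 ± 0.20), Fbxo4 (-0.18 ± 0.19) and Fbxo44 (-0.26 ± 0.25), each with an adjusted p of 0.9998.

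The rest of the SCF machinery was read from lists of its parts in the averaged HF against LF comparison. The shares of all tested genes to set beside these counts are 35.3% lower and 6.03% higher as deposited, and 20.6% lower and 19.9% higher with size factors. Of 5 core subunits, 1 was lower as deposited: Skp1a, the link between adaptor and cullin, at -0.08 ± 0.08 (adjusted p = 0.0446), a call lost when any of 8 libraries was left out (HF laparotomy 1 or 3, HF control 1 or 3, LF laparotomy 2 or 3, LF control 2 or 3), with adjusted p up to 0.107. The scaffold Cul1 ran from 39.0 to 45.5 TPM in HF and from 38.3 to 50.9 TPM in LF (0.09 ± 0.08, adjusted p = 0.598), and the RING subunit Rbx1 from 47.65 to 56.3 TPM in HF and from 43.95 to 53.5 TPM in LF (0.21 ± 0.07, adjusted p = 0.504). With size factors the core had 3 higher (Rbx1, Cul1 and Cul7) and 0 lower.

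Cullins are switched on by attachment of Nedd8, and the adaptor on them is exchanged by Cand proteins. Of 12 genes of this list, 1 was higher and 6 were lower in HF, with a median of -0.10, against 6.03% of all genes higher and 35.3% lower. With size factors 3 were higher and 4 lower, against 19.9% and 20.6% of all genes. Both exchange factors were lower: Cand1 ran from 2.16 to 3.26 TPM in HF, against 3.86 to 6.125 TPM in LF (-0.49 ± 0.11, adjusted p = 0.001005). Cand2, the muscle-enriched form, ran from 16.55 to 21.6 TPM in HF, against 24.45 to 36.0 TPM in LF (-0.50 ± 0.09, adjusted p = 0.000463). Neither gene overlapped between HF and LF, and 9.31% of all tested genes likewise had every HF library below every LF library. Both calls, for Cand1 and Cand2, held with size factors. Uba3, part of the Nedd8-activating enzyme, was lower (-0.32 ± 0.09, adjusted p = 0.00187), while Nedd8 was higher, with 127 to 140.5 TPM in HF, against 104 to 122 TPM in LF (0.35 ± 0.06, adjusted p = 0.0213). The call for Nedd8 was lost without LF laparotomy 2 or LF control 1 (adjusted p up to 0.0606).

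The COP9 signalosome takes Nedd8 off cullins. Of its 10 genes, 5 were lower and 0 higher in HF (Cops2, Cops3, Cops4, Cops7a and Cops8), against 35.3% of all genes lower. With size factors 3 were lower and 2 higher, against 20.6% and 19.9% of all genes. The call for Cops7a was lost when any of 8 libraries was left out (each HF laparotomy library, HF control 1 or 3, LF laparotomy 2 or 3, LF control 3), with adjusted p up to 0.0894. Cops8 was at -0.28 ± 0.08 (adjusted p = 0.00183) and Cops2 at -0.27 ± 0.09 (adjusted p = 0.00324). Among 7 conjugating partners of SCF ligases, 5 were lower and 0 higher, and 2 were lower and 1 higher with size factors, beside the same shares of all genes. Arih1, a ligase that works together with neddylated cullins, ran from 18.0 to 26.4 TPM in HF, against 26.85 to 41.5 TPM in LF (-0.59 ± 0.11, adjusted p = 0.00071). Ube2d3 ran from 51.1 to 64.1 TPM in HF, against 67.5 to 94.4 TPM in LF (-0.37 ± 0.08, adjusted p = 0.000927).

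Of 7 F-box genes with other symbols, 5 reached the minimum level. All 5 (Btrc, Lmo7, Kdm2a, Kdm2b and Fbh1) were lower in HF as deposited, against 35.3% of all tested genes, and 3 of them with size factors, against 20.6%. The call for Fbh1 was lost when any of 8 libraries was left out (HF laparotomy 1 or 2, HF control 1 or 3, LF laparotomy 2 or 3, LF control 1 or 3), and that for Kdm2b when any of 4 was (HF laparotomy 2, HF control 1, LF laparotomy 3 or LF control 3). The 4 adaptors that the symbol rule left out were also lower, with adjusted p between 0.00137 and 0.0271, and 3 of them with size factors. Among these, the call for Fbxo21 (adjusted p = 0.0271) was lost when any of 6 libraries was left out (HF laparotomy 3, HF control 1, LF laparotomy 2 or 3, LF control 2 or 3), with adjusted p up to 0.0738. Lmo7, which has an F-box and is abundant in muscle, was at -0.46 ± 0.10 (adjusted p = 0.0012).

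**Figure D5:**
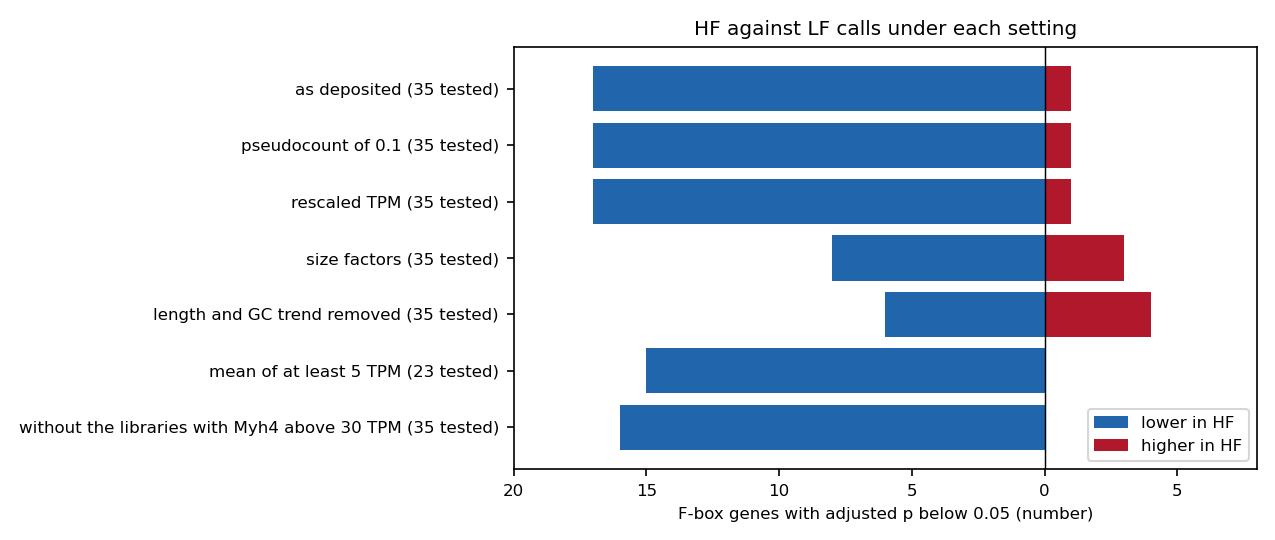
Number of F-box genes called in HF against LF averaged over treatments, under the deposited scale and 6 other settings. Blue bars to the left of 0 count genes lower in HF and red bars to the right genes higher in HF. The count runs from 17 lower and 1 higher as deposited to 8 and 3 with size factors and 6 and 4 after removal of the length and GC trend.

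Across all settings shown in the plot of calls by setting, the counts of lower genes ran from 6 to 17 and those of higher genes from 0 to 4. Of all tested genes, between 20.03% and 41.82% were lower and between 3.31% and 19.95% higher in these settings. Of 18 members called as deposited, 14 kept the call without each single library.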

How the data were processed

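Libraries were made from soleus RNA with a stranded Illumina kit and a polyA pull-down, per the labels' protocols. The authors deposited gene-level TPM. The submitters' processing notes name kallisto, DESeq2 and GRCm38, with no version and no role for any. No read counts or batch were at hand, so no counting interval was computed. Symbols and coordinates come from GENCODE M21, which held 29857 of the 30323 identifiers.

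For the tests, log2(TPM + 1) of genes averaging 1 TPM or more was fitted with limma 3.58.1 (R 4.3.3), using the trend option, 4 group means, two-sided tests in 7 contrasts and 8 residual degrees of freedom, adjusted by Benjamini and Hochberg over all 10757 genes. SE values belong to that fit. A fold on the log2(TPM + 1) scale understates changes of low genes. Alternatives were a pseudocount of 0.1, no filter, a stricter minimum of 5 TPM, size factors, TPM rescaled without the 13 mitochondrially encoded and 10 highest genes, removal of a length and GC trend (loess, span 0.3), omission of the 3 libraries whose Myh4 exceeded 30 TPM, and omission of each library. Copies were searched with BLAST 2.17.0 at 95% identity and 80% cover.

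Members, lists and alternatives were chosen with earlier results of these data known. Named genes were up to 10 higher and 10 lower by smallest p in the averaged HF against LF contrast, up to 5 each in the others or the 3 of smallest p where none passed, the 5 of highest mean, 17 genes of known role, and list genes past the threshold. Fbxl17, Fbxo45, Fbxo34, Fbxo17, Fbxo33, Fbxl6, Fbxl14, Fbxw17, Fbxw10, Fbxl13, Cul1, Rbx1 and Cul7 fall outside that rule and were named after their values were seen. Some genes covered by these choices are not reported here.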

Additional observations from a re-analysis of the deposited data

How the results depend on the processing

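No called difference of an F-box gene changed sign under any setting run. In HF against LF averaged over treatments, 18 members were called as deposited, 11 with size factors and 10 after removal of the length and GC trend. Of all genes, 35.3% were lower and 6.03% higher as deposited, 20.6% and 19.9% with size factors, and 20% and 14.3% after that removal. When each library was left out, 15 to 19 members were called, and between 28.4% and 41.6% of all genes were lower. The 19 were called without LF laparotomy 1, all lower, where 41.6% of all genes were lower. After laparotomy, the 14 called (all lower, against 24.5% of all genes) became 4 in each of 4 settings. With no filter, 4 of 64 were lower (6.25%), against 6.17% of all genes. With rescaled TPM, 4 of 35 were lower (11.4%), against 13.4% of all genes. With size factors 3 were lower (8.57%) and 1 higher (2.86%), against 10.7% and 9.31% of all genes, and after removal of the length and GC trend 3 were lower and 1 higher, against 10.5% and 6.02%. The members' shares in these settings were therefore near or below those of all genes. When each library was left out, the count ran from 2 without HF laparotomy 1 (5.71%, against 9.04% of all genes) to 17 without LF laparotomy 1 (48.6%, against 37.0%). It was 8 without LF control 3 (22.9%, against 21.3%). In controls, the 3 called (8.57%, against 8.04% of all genes lower) became 0 with no filter, against 0.255% of all genes. They became 0 without the libraries with high Myh4, against 1.09%. With size factors 2 were lower and 1 higher, against 8.92% and 9.055%, and with rescaled TPM 4 were lower, against 16.55%. After removal of the length and GC trend 2 were lower and 2 higher, against 6.94% and 4.695%. The count ran from 0 to 6 when each library was left out. It was 6 without LF laparotomy 1 (17.1%, against 15.7% of all genes), 1 without HF laparotomy 2 (2.86%, against 3.92%) and 1 without LF control 1 (2.86%, against 4.85%). The cause of these shifts was not tested. With no filter the number of genes tested was 22738. The 3 laparotomy comparisons and the interaction gave 0 members under each setting. No paired analysis was possible because the labels carry no replicate numbers. Depth is unknown, so the lowest genes carry an error that could not be computed, and values of genes with overlapped exons or near-identical copies are uncertain: Fbxw4 (21.4% of exon bases, opposite strand, Gm17018), Fbxo22 (15.4%, Nrg4), Fbxl15 (25.6%, Cuedc2), Fbxl2 (11.2%, Ubp1) and Fbxo34 (copy Gm7224).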

Other observations

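Fbxw10 was under the minimum level and was therefore not tested, and it was higher in HF throughout. It had 0.71, 0.776 and 0.618 TPM in HF laparotomy libraries and 1.03, 1.06 and 0.583 TPM in HF controls, against 0.486, 0.446 and 0.321 TPM in LF laparotomy libraries and 0.562, 0.468 and 0.433 TPM in LF controls. Every HF library was above every LF library, but narrowly, with 0.583 TPM in HF control 3 and 0.562 TPM in LF control 1. The share of all genes separated in this way was not computed without the filter. In the limma fit without a filter Fbxw10 was the only member of 64 called higher (0.31 ± 0.07, adjusted p = 0.0184), against 2.28% of 22738 genes. In that fit 16 members were called lower, against 14.3% of genes. Part of the exons of Fbxw10 (5.89%) is shared on the same strand with Trim16, a gene at 17.8 TPM, so its value is uncertain.

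Fbxl13 stood at 1.13 TPM in HF control 2 and at 0.0431 TPM or less in the other HF libraries, against 0 to 0.257 TPM in LF libraries.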
